A study of Mus musculus with 8 samples.

Results

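The genes described here are 44 mouse genes that copy the genome and divide the cell, taken by name from a list and found by symbol among 21883 protein-coding genes of the nuclear chromosomes (GRCm38). They were followed as peaks of 5-hydroxymethylcytosine (5hmC) in germinal center B cells from the spleens of C57BL/6 mice, labelled TET2 Knock-Out (KO) or TET2 Wild-Type (WT). DNA carrying 5hmC was pulled down and sequenced (hMeDIP-seq) in 4 libraries, numbered 2 and 3 in each genotype. Input libraries of the same samples were not analysed here. The age and sex of the animals, the allele and the cells in which TET2 was removed, and whether the libraries came from separate animals are not given in the labels. A p-value below thus reflects how far these libraries differ among themselves, a spread that may be technical.

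TET2 is a dioxygenase that oxidizes 5-methylcytosine, found mostly at CpG dinucleotides, to 5hmC. The mark is typically found in the bodies of active genes and at enhancers, and is scarce over unmethylated CpG-rich promoters. Germinal center B cells are among the fastest dividing cells of the body. In each cycle the origin recognition complex, Cdc6 and Cdt1 load the Mcm helicase onto origins, cyclin-dependent kinases start replication, and the mitotic kinases, the spindle checkpoint and the kinesins then part the copied chromosomes. Many of these genes have CpG-rich promoters and are held under common control by E2F and DREAM complexes.

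The lists held 280413 and 279546 peaks for KO replicates 2 and 3, and 270542 and 300950 for WT replicates 2 and 3, leaving out the mitochondrial genome. They covered 137.0 Mb and 110.6 Mb in the KO libraries and 124.8 Mb and 139.3 Mb in the WT libraries, so KO replicate 3 stood apart with the smallest coverage. Read numbers are not given in the sources used here, so the depth of the libraries is unknown. Tet2 itself had 3213 and 2444 covered bases in the KO libraries and 3191 and 2810 in the WT libraries, which does not check the genotype, since peaks over a whole gene do not read a partial deletion. As a check of the labelled cells, windows of 8 B cell genes such as Cd79a, Ms4a1 and Pax5 had a median of 269 covered bases per kb (mean of 4 libraries), against 77.3 for 7 T cell genes, 51.3 for 6 myeloid genes and 39.4 for all protein-coding genes. Single genes ranged from 37.0 to 397 in the B cell list, 0 to 129 in the T cell list and 0 to 149 in the myeloid list, so the lists overlapped. A 5hmC peak is not a measure of expression.

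5hmC peaks were sparse over the replication and mitosis genes. The value of a gene is the number of bases under peaks in its window, which is the gene span plus 2 kb on each side. Per kb of window, the median member had 25.1 and 20.1 covered bases in KO replicates 2 and 3, against 21.8 and 28.7 in WT replicates 2 and 3. The median over all protein-coding genes in the same libraries was 42.4, 33.5, 38.9 and 44.2 bases per kb. The members lay below the median gene in every library, in windows of similar size (median 20.2 kb for members and 21.2 kb for all genes). Summed over all windows, members had 36.7, 25.5, 34.5 and 37.7 covered bases per kb in KO replicates 2 and 3 and WT replicates 2 and 3, against 51.4, 40.9, 48.0 and 52.2 for all genes. No test was made of this gap, since the list was chosen with results of these data known.

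Most members nonetheless had a peak. A peak touched the window of 35 and 32 members in the KO libraries and 35 and 37 in the WT libraries (79.6%, 72.7%, 79.6% and 84.1%), beside 78.2%, 77.3%, 77.9% and 79.9% of all genes. Of the 44 members, 30 had a peak in all 4 libraries (68.2%; 72.8% of all genes) and 5 had none in any (11.4%; 16.4% of all genes). The coverage was concentrated: Kif11, Pold1, Bub1b and Anln held 42.9% and 41.4% of the members' covered bases in the KO libraries and 43.5% and 40.7% in the WT libraries. The peaks were also of modest height. The fold enrichment at a peak's summit, a value of the authors' peak caller over its local background, had a median of 4.14 and 3.71 over member peaks in KO replicates 2 and 3, and 4.45 and 3.78 in WT replicates 2 and 3. Over all peaks of those lists the medians were 5.10, 4.38, 5.51 and 4.89, so the typical member peak was below the typical peak of its own list in each library. Those lists also hold peaks outside gene windows, and no median over peaks in the windows of all genes was computed.

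**Figure D1:**
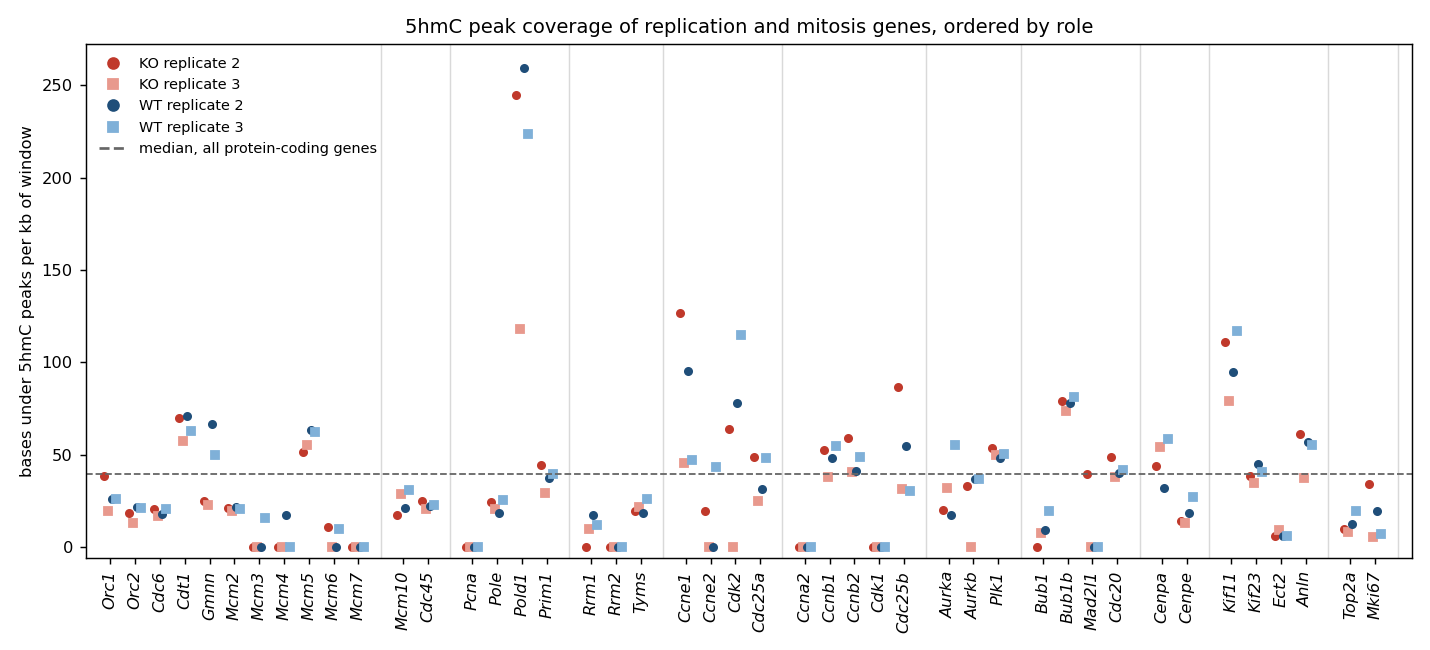
Bases under 5hmC peaks per kb of gene window (vertical axis) for the 44 members, grouped by role, with 1 point for each library and no averaging. The dashed line is the median of all protein-coding genes, 39.4 bases per kb; Pold1 stands above all other members in every library, while Mcm7, Pcna, Rrm2, Ccna2 and Cdk1 lie at 0 in all of them.

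Among the 11 origin licensing genes, most Mcm helicase subunits had few covered bases. Mcm7 (chromosome 5, 138164583 to 138172111) had no peak in any library. Mcm3 had 1 peak of 339 bases, in WT replicate 3 alone, and Mcm4 had 307 covered bases in WT replicate 2 alone, in a region shared with the span of its neighbour Prkdc. Mcm6 had 355 and 0 covered bases in the KO libraries and 0 and 309 in the WT libraries. These 3 subunits, with peaks in 1 or 2 libraries, were among the 4 lowest members above 0, at 3.97, 4.39 and 5.17 bases per kb on average. Mcm2, at 20.8 bases per kb, had 406 and 376 covered bases in KO and 424 and 400 in WT, from 1 region shared by all 4 libraries that had its summits just past the end of the gene. Mcm5 was the richest subunit, with 1182 and 1269 covered bases in KO and 1461 and 1429 in WT, or 58.1 bases per kb. Orc1 and Orc2, subunits of the origin recognition complex, averaged 27.5 and 18.6 bases per kb. Cdt1, the loader that geminin inhibits, had 65.2 bases per kb, but each of its summits lay past the end of the gene, 5621 and 5572 bases from the start in KO and 5607 and 5549 in WT. Of its 2 merged regions, 1 touched the span of the neighbouring gene Aprt.

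The enzymes of the replication fork spanned the widest range. Pold1, the catalytic subunit of DNA polymerase delta (chromosome 7, 44532744 to 44548815), averaged 212 bases per kb, the most of any member, with 4914 and 2373 covered bases in KO and 5204 and 4489 in WT. Pole, its counterpart in polymerase epsilon, had 22.2 bases per kb and Prim1, the primase subunit that makes the RNA primers, had 37.7. Pcna, the sliding clamp (chromosome 2, 132249286 to 132253180), had no peak in any library. Mcm10 and Cdc45, which help turn the loaded helicase on, averaged 24.7 and 22.9 bases per kb. Of the enzymes of nucleotide supply, Rrm2, the small subunit of ribonucleotide reductase, had no peak, and Rrm1, the large subunit, had 0 and 307 covered bases in KO and 552 and 388 in WT. Tyms, thymidylate synthase, averaged 21.5 bases per kb.

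Among cyclins and their kinases, Cdk1 and its partner Ccna2 had no peak in any library. Ccnb1, the mitotic cyclin B1, had a single region, with tall peaks whose fold enrichments were 10.4 and 8.09 in KO replicates 2 and 3, and 11.3 and 9.38 in WT replicates 2 and 3. These were the highest of any member except in KO replicate 2, where a Pold1 peak reached 10.8. Relative to the gene start the Ccnb1 summits lay at -1182 and -1190 bases in KO and at -1228 and -1172 in WT. Ccne1, cyclin E1, came after Pold1 and Kif11 at 78.6 bases per kb, with 1712 and 616 covered bases in KO and 1284 and 636 in WT, so that the spread within each genotype was larger than the gap between them. Ccne2 had 358 and 0 covered bases in KO and 0 and 792 in WT. Cdc25a, the phosphatase that activates Cdk2, averaged 38.3 bases per kb, and Ccnb2 and Cdc25b averaged 47.6 and 50.9.

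The mitotic genes ranged from Kif11, the kinesin-5 motor that drives spindle poles apart, at 101 bases per kb, to Ect2, the exchange factor that switches on RhoA for cytokinesis, at 6.76. Ect2 had 360 and 565 covered bases in KO and 365 and 360 in WT, with 1 region shared by all libraries. Kif11 had 5483 and 3912 covered bases in KO and 4687 and 5800 in WT, over 10 regions of which 8 had a peak in all 4 libraries. Bub1b, the checkpoint kinase BubR1, averaged 78.0 bases per kb, with 3753 and 3488 covered bases in KO and 3705 and 3838 in WT. Its relatives in the checkpoint were poorer: Bub1 had 9.06 bases per kb and Mad2l1 had 1 peak of 393 bases, in KO replicate 2 alone. Cdc20, the activator of the anaphase-promoting complex, had 42.1. Plk1, Aurka and Aurkb averaged 50.5, 31.3 and 26.7 bases per kb. Cenpa, the centromeric histone, had 47.2 and Cenpe 18.1, and Kif23 and Anln, which act in cytokinesis, had 39.6 and 52.6. Top2a, which untangles the copied strands, and Mki67, which coats mitotic chromosomes, were low at 12.7 and 16.6.

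Gene starts were examined in 38 members that have an entry in a RefSeq table of start sequences (GRCm38.p6), each 300 bases long from 250 before to 50 after the start. Ccna2, Ccne2, Gmnn, Mcm4, Pole and Aurkb have none. The starts of the members were rich in CpG, with a median of 23 and a range of 8 to 41 per 300 bases, against a median of 13 over 17491 protein-coding genes. A peak overlapped the start of 4 members (10.5%) in any library, and the background was 9.03% of all genes. It did so in 3 and 3 members in the KO libraries and 2 and 3 in the WT libraries. Cdc6 and Orc2 had a peak there in all 4 libraries, Cdc25b in KO replicate 2 alone, and Rrm1 in KO replicate 3 and WT replicate 3. The start peak of Cdc6 was its only peak. The start used for Cdc6 lies 442 bases inside its gene span, so the peak is within the span and not upstream of it. Other members have such starts too, 512 bases inside the span in Cdc25b and 3749 in Orc1. For these, positions before the start can lie within the span. The Cdc6 peak covered all 300 bases in each library, with summits at -165 and -117 bases from the start in KO and -129 and -102 in WT. Its fold enrichments were 4.78 and 3.71 in KO and 4.45 and 3.86 in WT. In Orc2, 207 and 166 of the 300 bases were under a peak in KO and 170 and 192 in WT.

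The start sequences of the genes that carried a start peak in all 4 libraries are shown beside 2 genes with no peak in any library, Cdk1 and Rrm2. Capitals mark CpG dinucleotides, the usual sites of cytosine methylation. The windows, on the strand of the gene, are chr11:98907901-98908200 (Cdc6, plus), chr1:58505060-58505359 (Orc2, minus), chr10:69352863-69353162 (Cdk1, minus) and chr12:24708004-24708303 (Rrm2, plus).
Cdc6: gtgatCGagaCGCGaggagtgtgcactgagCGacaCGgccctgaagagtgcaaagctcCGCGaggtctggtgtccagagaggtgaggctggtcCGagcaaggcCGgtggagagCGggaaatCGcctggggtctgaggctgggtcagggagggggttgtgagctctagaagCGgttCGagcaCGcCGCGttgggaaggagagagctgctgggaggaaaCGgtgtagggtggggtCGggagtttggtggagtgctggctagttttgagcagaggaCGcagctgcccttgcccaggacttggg
Orc2: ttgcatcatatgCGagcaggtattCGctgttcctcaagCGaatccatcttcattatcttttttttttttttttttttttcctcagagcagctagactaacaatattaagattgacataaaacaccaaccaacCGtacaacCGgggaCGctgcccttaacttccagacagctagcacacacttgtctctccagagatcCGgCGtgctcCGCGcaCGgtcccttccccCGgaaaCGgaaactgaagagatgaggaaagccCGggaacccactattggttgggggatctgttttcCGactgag
Cdk1: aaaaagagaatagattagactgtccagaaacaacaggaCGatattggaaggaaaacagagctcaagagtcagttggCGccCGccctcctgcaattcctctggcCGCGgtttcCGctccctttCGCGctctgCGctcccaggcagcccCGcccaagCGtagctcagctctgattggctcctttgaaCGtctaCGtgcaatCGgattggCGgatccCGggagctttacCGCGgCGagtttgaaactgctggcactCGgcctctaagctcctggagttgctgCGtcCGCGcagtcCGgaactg
Rrm2: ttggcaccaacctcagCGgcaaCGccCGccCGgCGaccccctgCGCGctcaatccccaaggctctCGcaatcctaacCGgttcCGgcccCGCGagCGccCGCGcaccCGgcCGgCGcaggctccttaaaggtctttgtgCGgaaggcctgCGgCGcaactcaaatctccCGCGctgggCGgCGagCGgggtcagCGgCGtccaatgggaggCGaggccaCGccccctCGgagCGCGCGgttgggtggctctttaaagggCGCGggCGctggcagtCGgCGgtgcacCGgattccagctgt
The Cdc6 and Orc2 windows hold 19 and 15 CpG, and those of Cdk1 and Rrm2 hold 24 and 40. Cdc6 and Orc2 thus had fewer CpG in the window than the median member. So did members with no start peak in any library, such as Mcm3 with 8 and Tyms with 9.

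Counting the outermost start of each gene, the share of all genes with a peak there in any library was 6.85% with 0 to 4 CpG, 10.3% with 5 to 9, 8.98% with 10 to 19 and 6.04% with 20 or more. Of the members, 0 fell in the first class, 3 in the second, 13 in the third and 22 in the last, and 1, 2 and 1 members of those last 3 classes had a start peak. In the letters of the windows, the CHR element TTTGAA, bound by the DREAM and MMB complexes, occurred on either strand in 15 of 38 members (39.5%; 16.6% of all genes). CCAAT, the box bound by NF-Y, occurred in 31 (81.6%; 39.2% of all genes), and an E2F site written as TTTGGCGC or TTTCCCGC in 9 (23.7%; 2.104% of all genes). Matches of different motifs were counted independently and may share bases. These are matches of letters and were not tested as binding sites.

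Around the start, coverage of the members was low just inside the gene. In bins of 500 bases and averaged over the 4 libraries, 2.48% and 1.96% of bases lay under peaks in the first and second bin after the start, against 3.38% and 5.06% for all genes. Between 2 and 1 kb before the start the values were 8.47% and 10.3%. For all genes they were 6.08% and 6.29% in those upstream bins. Further in, from 1 to 10 kb, members lay above all genes in 6 bins of 18 and below in 12, from 0.899% against 5.58% between 2 and 2.5 kb to 8.64% against 5.70% between 5.5 and 6 kb. With 38 members a bin is set by few genes: 9 of them had a peak in any library between 1.5 and 1 kb before the start.

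**Figure D2:**
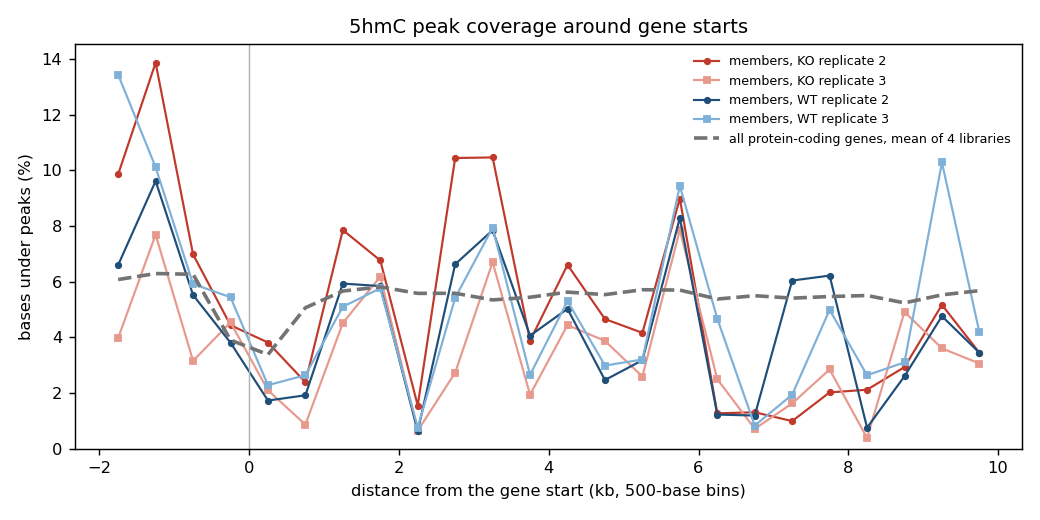
Percentage of bases under 5hmC peaks (vertical axis) in bins of 500 bases from 2 kb before to 10 kb after the gene start, for 38 members in each library and for all protein-coding genes as the mean of 4 libraries (dashed). Members averaged 2.48% and 1.96% in the first 2 bins after the start, and moved widely from bin to bin further in.

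The comparison of genotypes asked whether peak coverage of each gene differed without TET2. No member passed. Covered bases were scaled to equal totals over all gene windows and tested as log2(bases + 200), so that fold changes of sparsely covered genes are understated. Of the 44 members, 25 had the mean of 500 covered bases needed for the test, and 19 did not. By limma with Benjamini-Hochberg adjustment over 14000 genes, adjusted p under 0.05 was reached by 0 members in the higher and 0 in the lower direction, and the background was 0% of all genes in each. At an unadjusted p under 0.05 there was 1 member (4%), Gmnn, against 4.05% of all genes. Of the 25, 13 had a lower and 12 a higher value in KO. The median log2 change was -0.02, beside 0.02 over all genes tested. Scaling to equal totals removes a change common to all genes, so the split and the medians cannot show one. Whether coverage was lower in general in KO was thus not tested. In 4 tested members (16.0%) both KO libraries lay below both WT libraries, and the background was 13.6%. In 3 (12%) they lay above, against 18.0% of all genes. Gmnn and Cdk2, both among the 4 on the lower side, met the coverage filter only through their WT libraries. Their KO means were 354 and 334 scaled bases, under the 500 needed. Standard errors ranged from 0.12 to 0.73, so changes of small size could not be detected in most members.

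Gmnn encodes geminin, which keeps Cdt1 from loading the helicase again within 1 cycle (chromosome 13, 24751845 to 24761937). It had 330.5 and 378 scaled bases in KO and 942 and 646 in WT, so that the genotypes did not overlap. Since high WT values brought it into the test, a lower KO value was favoured by the filter. The log2 change was -0.83 with a standard error of 0.28 (limma, unadjusted p = 0.032, adjusted p = 0.992). The peaks that differed lay mostly in the gene body. Each KO library had 1 peak, in the flank of the gene, and no peak within the span, while WT replicate 2 had 2 peaks in the span and WT replicate 3 also had 2. Only 1 span peak was shared by the WT libraries, and the other lay at 24758261 in WT replicate 2 and at 24760702 in WT replicate 3. The flank peak was also present in WT replicate 2.

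Cenpe, the kinesin that carries chromosomes to the spindle equator, had 848 and 993 scaled bases in KO and 1194 and 1618 in WT. Again the groups did not overlap (log2 change -0.51, standard error 0.21, limma adjusted p = 0.992), and the value was -0.32 without WT replicate 3. Cdk2, the S phase kinase, had 668 and 0 scaled bases in KO and 871 and 1175 in WT. Like Gmnn, it was in the test only through its WT values. Its log2 change of -1.54 (standard error 0.73, limma adjusted p = 0.992) rested on KO replicate 3, without which it was -0.49. Moreover, all 3 regions of Cdk2 lay in its flanks and touched the spans of neighbouring genes, Rab5b or Pmel. Orc2 was the remaining tested member without overlap on the lower side, with 791 and 711 scaled bases in KO and 1005 and 912 in WT.

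On the higher side, Ccnb2, cyclin B2, had 989 and 860 scaled bases in KO and 742 and 805 in WT, without overlap (log2 change 0.21, standard error 0.19, limma adjusted p = 0.992), and the value was 0.12 without KO replicate 2. Pole had 1266 and 1349 in KO and 1011 and 1285 in WT, where the groups overlapped (log2 change 0.17, standard error 0.18, limma adjusted p = 0.992). It was 0.02 without WT replicate 2 and 0.31 without WT replicate 3. Cdc25b, the phosphatase that activates Cdk1 at the entry to mitosis, had 1307 and 595 in KO and 884 and 450.0 in WT. Its libraries overlapped, and the log2 change of 0.38 (standard error 0.42, limma adjusted p = 0.992) turned to -0.08 without KO replicate 2. Cdc45 and Plk1 were the other tested members with both KO libraries above both WT libraries, at log2 changes of 0.11 and 0.16. Among members with too little coverage for the test, the same order held in Cdc6 and Cdc20, and the opposite one in Aurkb, Bub1 and Top2a. No share over all genes below the filter was computed, so these orders have no background. They rest on few peaks, and some gaps were narrow. Cdc6 had 395 and 398 scaled bases in KO and 369 and 386 in WT, and Bub1 had 0 and 318 in KO and 324 and 645 in WT. For Kif11 and Bub1b, 2 of the members with most 5hmC, the values were narrow: -0.04 and 0.06, with standard errors of 0.12 each.

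**Figure D3:**
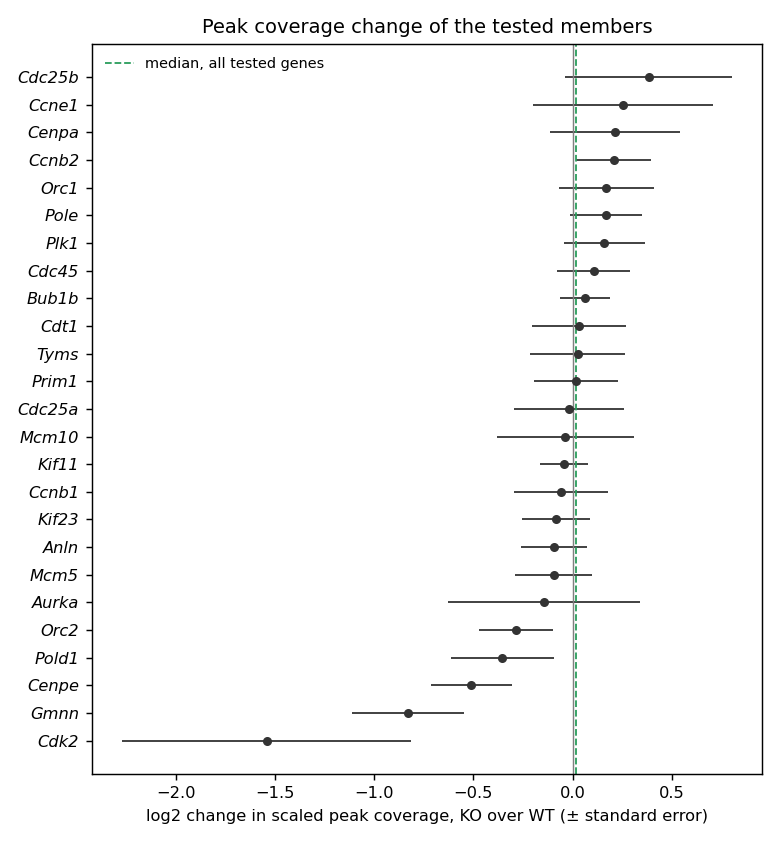
Log2 change in scaled peak coverage, KO over WT (horizontal axis), for the 25 tested members; points are limma estimates and bars are ± 1 standard error, from 2 KO and 2 WT libraries. The members spread on both sides of 0, with Cdk2, Gmnn and Cenpe the lowest and Cdc25b the highest, and none passed the adjusted threshold.

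Peaks were merged across the 4 libraries into 129 regions in the members' windows. Of these, 61 (47.3%) had a peak in all 4 libraries, against 58.0% of the 148801 regions in windows of all genes, and 30 (23.3%) had one in a single library, against 18.2%. A peak of KO replicate 2 lay in 87 of them, of KO replicate 3 in 82, of WT replicate 2 in 91 and of WT replicate 3 in 104. A peak in both KO libraries and neither WT library occurred in 1 region, in Anln (0.775%; background 1.26%). The opposite pattern occurred in 6 regions (4.65%; background 2.24%), 2 in Pold1 and 1 each in Orc2, Gmnn, Cenpe and Anln. No test was made of these shares.

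Regions that differ between genotypes come from the authors' deposited tables, 1 of regions enriched in KO (KO-higher) and 1 of regions enriched in WT (WT-higher), each with a score whose scale is not stated. Among the members, 5 held a WT-higher region: Pold1 with 4, Bub1b with 2, and Gmnn, Rrm1 and Kif11 with 1 each. That is 12.8% of the 39 members with any merged region, and the background was 28.3% of genes with one. Since members have few peaks, the share of regions is the closer measure. Of the members' 129 regions, 7 (5.43%, 95% Wilson interval 2.65 to 10.8%, counting error only) held a WT-higher region, against 7.26% over all genes. Regions of 1 gene are not independent, and 4 of the 7 lie in Pold1, without which the share was 2.54%. No member held a KO-higher region (0 of 39), and the background was 0.104%. The tables carry no replicate values, so these calls cannot be set against the spread between libraries.

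All 9 WT-higher regions had their midpoints inside the spans of the members. By the authors' deposited table their scores ran from 3.60 to 7.65, with a median of 5.81, beside 4.77 for all WT-higher regions. A peak of KO replicate 2 overlapped 6 of them and one of KO replicate 3 overlapped 4, whereas a peak of WT replicate 2 and one of WT replicate 3 each overlapped 8. That order restates how the table was made and supports nothing. In 4 of the 9 a peak was present in all 4 libraries.

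Pold1 held 4 of the 9. By the authors' deposited table they lie on chromosome 7 at 44532693 to 44532990 (score 4.52), 44535083 to 44535316 (7.43), 44537017 to 44537477 (6.55) and 44537712 to 44538064 (4.70). KO replicate 2 had a peak at the first 3, KO replicate 3 at the second alone, and both WT libraries at all 4. At the second, which had the highest score in Pold1, the fold enrichments overlapped, with 6.353 and 6.404 in KO and 7.454 and 5.833 in WT. These are values at the peak summits, which lay outside the region in all libraries but WT replicate 3. All lay toward the far end of the gene, 10.9 to 16.0 kb from its start. The neighbouring gene there is Spib, which encodes an ETS transcription factor of B cells. The spans of the genes are 656 bases apart, and the Spib start faces Pold1, so that the 4 regions are also 0.622 to 5.99 kb upstream of Spib. Whether these regions belong with Pold1 or with Spib was not tested. The strongest peaks of Pold1 lay between the first and the second of them, on 44533355 to 44534161 in KO replicate 2, with fold enrichments of 10.8 and 7.08 in KO and 9.90 and 6.39 in WT. That peak itself held no WT-higher region. The log2 change of coverage over the whole Pold1 window was -0.36 (standard error 0.26, limma adjusted p = 0.992), with overlapping groups at 4601 and 2792 scaled bases in KO and 5218 and 4139 in WT. It was -0.01 without KO replicate 3.

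**Figure D4:**
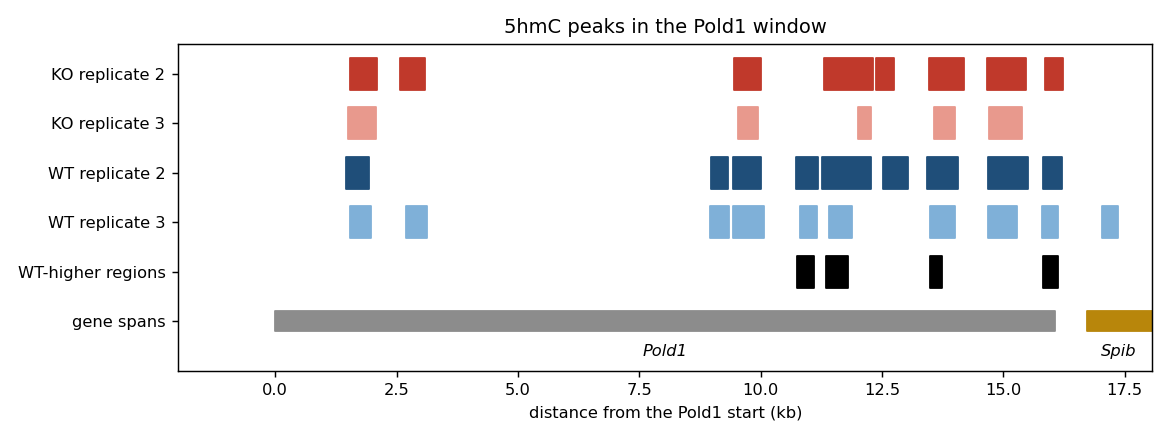
5hmC peaks of each library (coloured bars, with KO libraries above WT libraries) and WT-higher regions (black) in the Pold1 window, by distance from the Pold1 start in kb, with the spans of Pold1 (grey) and its neighbour Spib (gold) beneath; a further neighbour before the start, Nr1h2, is not drawn. The 4 WT-higher regions lie 10.9 to 16.0 kb from the Pold1 start, on the side of Spib.

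The WT-higher region of Gmnn (chromosome 13, 24753488 to 24753749, score 5.97 in the authors' deposited table) coincided with a peak in both WT libraries, with fold enrichments of 3.73 and 3.15, and with none in either KO library. In Bub1b the 2 regions, at 118621353 to 118621584 and 118621758 to 118621970 on chromosome 2 (scores 5.81 and 7.65), lay 23.3 and 23.7 kb into the gene under peaks found in every library. At the first, the KO peaks had fold enrichments of 5.34 and 2.87, against 5.59 and 4.73 for the WT peaks. At the second, of higher score, they had 5.34 and 4.38, against 5.59 and 4.81. In KO replicate 2 and WT replicate 2, 1 wide peak spans both regions, so 5.34 and 5.59 are the same values given again. Every summit at the second region lay outside it, so these fold enrichments do not measure the region itself. The summits of the wide peaks also lay outside the first region, so only the values of KO replicate 3 and WT replicate 3 were taken inside it. The Kif11 region (chromosome 19, 37378874 to 37379135, score 3.60) lay 2.62 kb into the gene, where all libraries had a weak peak of 3.02 and 2.49 in KO and 3.50 and 3.54 in WT. The Rrm1 region (chromosome 7, 102459508 to 102459715, score 5.04) overlapped no peak of any library. Total peak coverage of Bub1b and Kif11 did not pass the test, but 0 of 14000 genes did, so this sets them apart from no other gene.

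**Figure D5:**
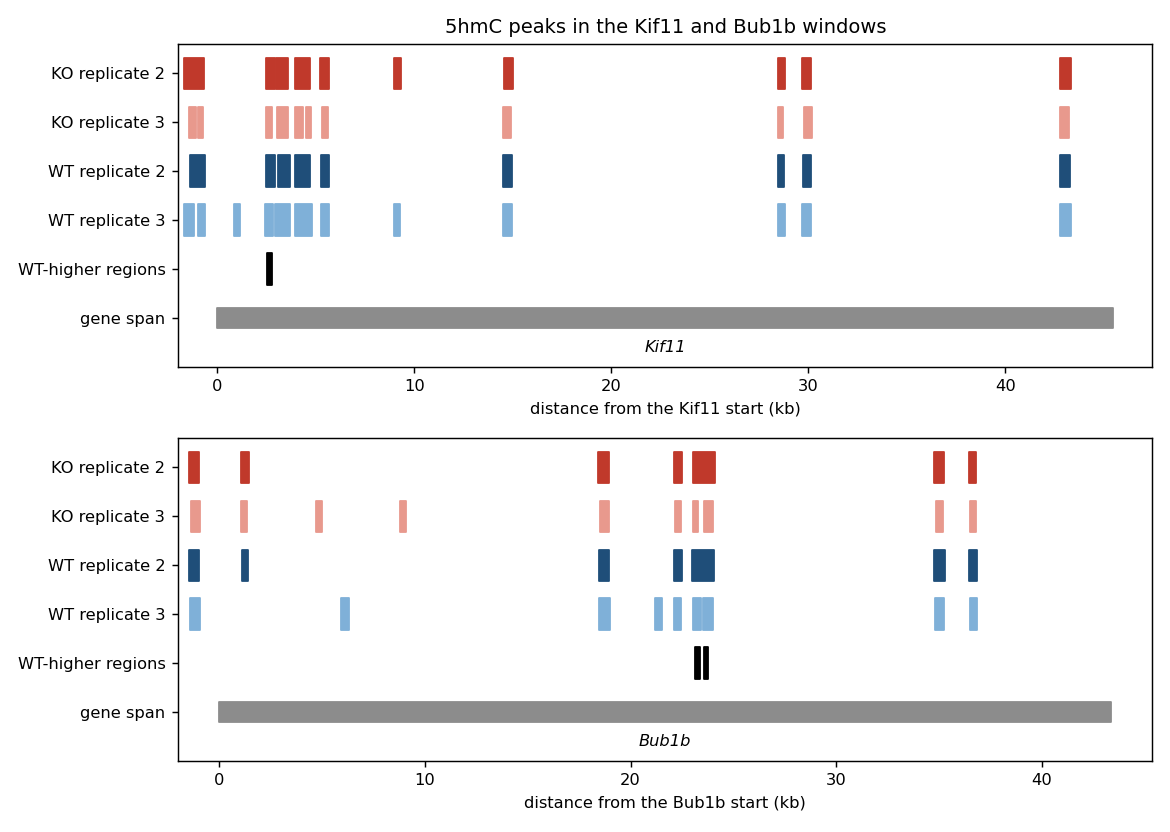
5hmC peaks of each library (coloured bars, with KO libraries above WT libraries) and WT-higher regions (black) along Kif11 and Bub1b, by distance from each gene's start in kb. In Kif11, 8 of 10 merged regions had a peak in every library; the WT-higher regions lie 2.62 kb into Kif11 and 23.3 and 23.7 kb into Bub1b.

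A further 118 genes of replication and mitosis gave a wider view of both processes. Their median was 27.8 covered bases per kb, also below the 39.4 of all genes, with 33.7 for 49 replication genes and 26.8 for 69 mitosis genes. Of 82 tested, 43 were lower and 39 higher in KO, with a median log2 change of -0.02, and by limma 0 passed the adjusted threshold, while 5 (6.10%) had an unadjusted p under 0.05, beside 4.05% of all genes. These are scaled values too, so a change common to all genes was not tested. Both KO libraries lay below both WT libraries in 17 (20.7%; background 13.6%) and above them in 16 (19.5%; background 18.0%). Those of smallest p on the lower side were Pold2, a further subunit of polymerase delta, at 363 and 348 scaled bases in KO and 704 and 707 in WT (log2 change -0.70, limma adjusted p = 0.992), and Nusap1, a microtubule-binding spindle protein, at 1005 and 1602 in KO and 2128 and 1897 in WT. On the higher side they were Mcm9, a helicase of DNA repair, at 4167 and 3974 in KO and 2880 and 3244 in WT, and Tpx2, the activator of Aurora A, at 2592 and 2586 in KO and 1763 and 2054 in WT. The groups did not overlap in these 4 genes, which were chosen for their small p. Like Gmnn and Cdk2, Pold2 met the coverage filter only through its WT libraries, with a KO mean of 356 scaled bases. A lower KO value of Pold2 was thus favoured by the filter.

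WT-higher regions were found in 30 of the 108 wider-list genes with a merged region (27.8%; background 28.3%), and 44 of their 517 regions (8.51%, Wilson interval 6.401 to 11.2%) held one. By the authors' deposited table, Rfc1, the large subunit of the clamp loader, held 5 of them, Mad1l1, the partner of Mad2 at the kinetochore, 4, and Prim2, the large primase subunit, Dna2, a nuclease of Okazaki fragments, and Cenpm, a centromere protein, 3 each. Cit, a kinase gene of cytokinesis, tied with the last 3. None of the wider list held a KO-higher region.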

How the data were processed

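hMeDIP-seq peaks of 4 libraries were analysed. The submitters' processing notes list MACS2 2.1.0.20151222, BWA 0.7.12-r1039 and the build GRCm38.p3; settings are not given in the sources used here. The authors deposited 1 list per library, with a fold enrichment (ratio), a −log10 p-value and −log10 q-value and a score per peak, and a pair of tables of differential regions with a deposited score; their caller and compared libraries are not stated. Read depth is unknown.

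Gene spans came from RefSeq (GRCm38.p6; all 44 members and 118 further genes matched by symbol), and start sequences from RefSeq tables of the same build, whose primary chromosomes share the coordinates of GRCm38.p3. Overlap meant at least 1 base. Coverage was tested with limma 3.58.1 (trend and robust, R 4.3.3) on every gene averaging 500 covered bases or more, threshold 0.05. The code was checked on simulated data whose planted changes were larger than any seen in the members. That check does not measure power for changes of the size seen here. Named genes were members with a differential region, the 4 with most and the 4 with fewest covered bases per kb, those with no peak, the 3 tested members of smallest p in each direction and, of the further genes, the 5 with most WT-higher regions and the 2 of smallest p in each direction; the other members named in the text were added for their role. The members and lists were chosen with earlier results of these data known. In the B cell list, 1 gene is not reported here, and its median was computed without it. Alternatives were another pseudocount, no filter, no scaling, strong peaks, equal peak numbers, gene spans alone, summits, a replicate block and each library left out.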

Additional observations from a re-analysis of the deposited data

How the results depend on the processing

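With 2 libraries per genotype and 0 of 14000 genes passing in limma, the 0 members that passed under each of 12 alternatives say nothing about stability. The median log2 change over tested members, -0.02, was -0.10 without scaling (all genes -0.10), 0.10 with peaks of at least 5-fold enrichment (6 members; all genes 0.050), 0.063 over gene spans alone (all genes 0.015) and 0.040 for summits (all genes 0.039), and -0.078 to 0.0090 with 1 library left out, the lowest without KO replicate 2 (all genes 0.023). Start peaks occurred in 4 of 38 members (all genes 9.03%). They numbered 1 at 5-fold enrichment (all genes 4.52%) and 2 when required in all 4 libraries (all genes 4.20%). Without Pold1, chosen after seeing the data, 2.54% of the members' regions held a WT-higher region, in place of 5.43%. At a score of at least 5 it was 3.10% (all genes 3.135%) and in gene spans 7.37% (7.41%), but with 5-fold peaks 6.25% (11.07%) and in regions of all 4 libraries 6.56% (9.59%). Same-numbered libraries of the 2 genotypes share only a number, and their deviations correlated at r = 0.0897 over 14000 genes. With the replicate block 0 members passed and the median stayed at -0.02.

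For 19 named genes, none of which passed, the log2 change was recomputed, and the sign turned in these cases. A gene that fell below the coverage filter in a setting had no value there, so it is not known to have kept its sign. At 5-fold enrichment 7 turned and 3 kept it. Gmnn had no value without WT replicate 2, Cdk2 none without WT replicate 3, and Pold2 none without either. Without scaling, Bub1b was -0.057 and Mad1l1 -0.081. At 5-fold enrichment, Bub1b was -1.26, Dna2 1.46, Kif11 0.076, Pold1 0.37, Pole -0.031, Prim2 0.15 and Rfc1 0.17. Bub1b was -0.083 with equal numbers of peaks, and Kif11 0.060 for summits. With 1 library left out, Bub1b ranged from -0.043 to 0.17, Ccne1 from -0.23 to 0.74, Cdc25b from -0.078 to 0.85, Kif11 from -0.13 to 0.047, and Mad1l1 from -0.055 to 0.14. The cause was not tested. Peak lists hold only called peaks, so 5hmC below the caller's threshold is not seen.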
